A study of Homo sapiens with 8 samples.

Results

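The knockdown of MTHFD2 was examined in lung fibroblasts that had been given TGF-β1, by setting 2 shMTHFD2 libraries against 2 shMock libraries, which are 4 of the 8 RNA sequencing libraries of the series. Of 60666 gene IDs in the deposited table, 13493 averaged 1 CPM or more over the 8 libraries, and these are the genes described. CPM is a gene's count scaled to the size of its library, so that libraries can be compared. All cells were MRC5, an established human lung fibroblast line. The 4 groups of 2 libraries were shMock without treatment, shMock with 4 ng TGF-β1 for 24 h (no volume is given), shMTHFD2 without treatment and shMTHFD2 with the same TGF-β1. shMock is the control hairpin and shMTHFD2 the hairpin against MTHFD2, and each line stands for its hairpin alone. There is no additional hairpin and no rescue, so the effect of MTHFD2 and any other difference between the lines cannot be told apart. The labels do not say whether same-group libraries came from separate cultures, so p-values measure the spread between libraries, which may be technical. In 3 shMTHFD2 samples the genotype entry names a gene of another number than MTHFD2, and the extraction text names A549 cells and another hairpin. Groups were therefore read from the titles, and both points bear on the checks of identity below.

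MTHFD2 is a mitochondrial enzyme of the folate pathway, which passes carbon units from serine to formate for use in purine synthesis. TGF-β1 turns lung fibroblasts into myofibroblasts, cells with contractile actin bundles that lay down collagen-rich matrix and are the main matrix producers of a fibrotic lung. Serine and glycine supply for collagen runs through the same pathway, and the transcription factor ATF4 drives many of its genes. Interferon-stimulated genes, a separate programme, are switched on when interferons bind their receptors and encode proteins that block the growth of viruses.

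The 4 libraries with TGF-β1 held 18536494 to 20553084 counts, and 3.83 to 4.65% of these came from mitochondrial genes. Over these 4, the lines separated along a component with 51.6% of the variance, and libraries of the same line lay apart along the next, with 24.9%. The 13 fibroblast markers summed to 73715 and 83846 CPM in shMock and to 73344 and 75361 CPM in the knockdown, a sum carried by abundant members such as COL1A1 and FN1. THY1, a surface marker on this list, fell (479 and 425 against 337 and 337 CPM, log2 fold change -0.42, SE 0.08, adjusted p = 0.0044). The 14 epithelial markers were included because the extraction text names A549 cells, though not every one need be expressed in that line. Of these, 7 had no counts in any library with TGF-β1, KRT19 among them. The list summed to 34.0 and 30.9 CPM in shMock and 37.7 and 29.8 CPM in the knockdown. Nearly all of this came from KRT8 and KRT18, the only 2 members tested. KRT7 stood at 1.23 and 2.12 CPM in shMock and 1.23 and 0.762 CPM in the knockdown. EPCAM was at 0 in 3 of the 4 libraries with TGF-β1 and at 0.152 CPM in the remaining one, a knockdown library. Endothelial, leukocyte and mesothelial lists had 4 of 7, 6 of 9 and 3 of 6 markers at 0, with PECAM1, CDH5, CD3E and WT1 among them. The endothelial list nevertheless summed to 48.9 and 43.3 CPM in shMock and 43.4 and 40.8 CPM in the knockdown, above the epithelial sums. The leukocyte list, of which only CD68 was tested, summed to 58.6 and 53.5 CPM in shMock and 47.2 and 51.1 CPM in the knockdown. The mesothelial sums were 5.17 and 4.25 CPM in shMock and 4.34 and 4.17 CPM in the knockdown. Of the 7 smooth muscle and pericyte markers, DES was at 0 and MYH11 stood at 0.255 CPM or lower, while the pericyte adhesion molecule MCAM fell (213 and 214 against 141 and 132 CPM, log2 fold change -0.65, SE 0.08, adjusted p = 0.00011). The smooth muscle and pericyte list summed to 359 and 356 CPM in shMock and 294 and 278 CPM in the knockdown, so it was not absent.

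MTHFD2 itself (ENSG00000065911; GRCh38 chromosome 2, 74198562 to 74217565, plus strand) stood at 256 and 258 CPM in the shMock libraries and 93.8 and 91.9 CPM in the knockdown libraries, a 2.77-fold lower level (log2 fold change -1.47, SE 0.09, adjusted p = 8.7e-07, edgeR quasi-likelihood test with Benjamini-Hochberg adjustment over all 13493 genes, as for every adjusted p below). Without TGF-β1 it stood at 58.8 and 57.1 CPM in shMock and 14.9 and 18.7 CPM in the knockdown. The treated knockdown libraries thus held more MTHFD2 RNA than the untreated shMock libraries, with no overlap between the groups.

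With TGF-β1, 1762 genes (13.1%) passed an adjusted p of 0.05, of which 652 (4.83%) were higher in the knockdown and 1110 (8.23%) lower. With 2 libraries a group, 1 library can decide a call, and without shMock TGF-β1 replicate 1 the counts were 265 higher and 591 lower. Without shMTHFD2 TGF-β1 replicate 1 they were 226 and 619, and without its replicate 2 they were 313 and 686. A gene is therefore said to have risen or fallen here only where it passed with all libraries and again, in the same direction, without each of the 4 libraries with TGF-β1. This held for 110 genes that rose (0.815% of those tested) and 409 that fell (3.03%). The count of every list below is to be read beside these shares, and 1 or 2 changed members of a list can lie near them. In brackets, the 2 CPM values before "against" are shMock replicates 1 and 2 with TGF-β1, those after it are the knockdown replicates, and the next value is the log2 fold change. The median log2 fold change was 0.63 among those that rose and -0.60 among those that fell, against 0.01 over all genes, and 21 and 36 of them changed at least 2-fold. Protein-coding genes made up 108 of the risen and 406 of the fallen genes, and of 951 long non-coding RNAs tested 2 rose and 3 fell.

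**Figure D1:**
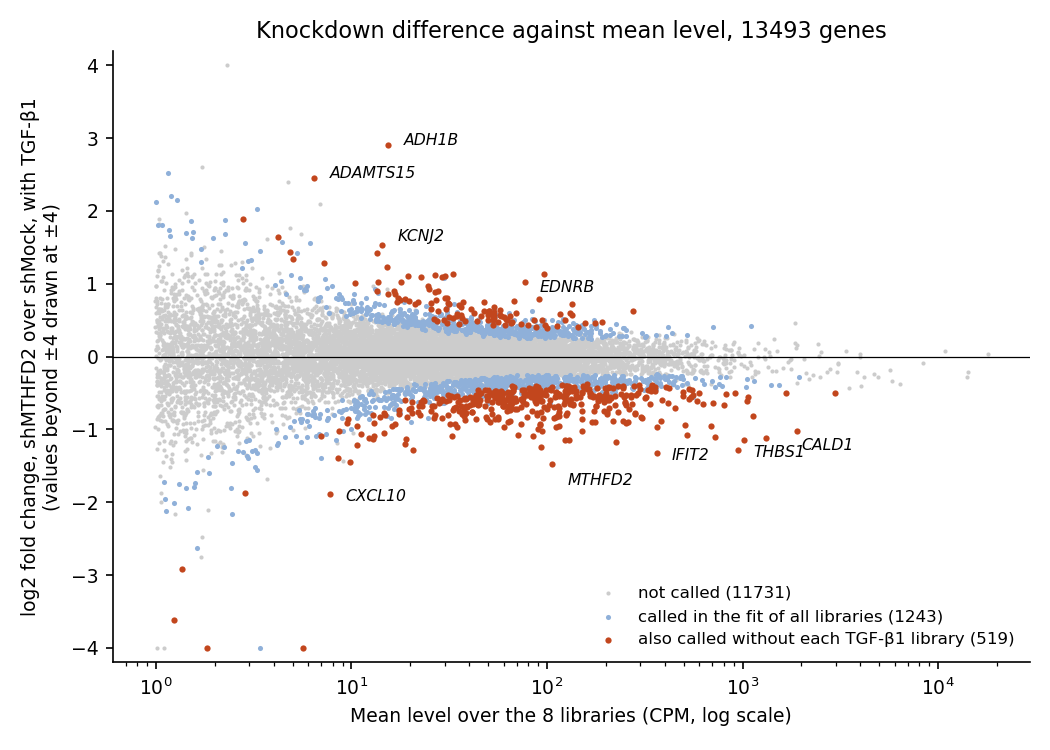
Each point is 1 of the 13493 genes tested, with its mean level over the 8 libraries in CPM on a log axis and its log2 fold change between knockdown and shMock cells with TGF-β1 on the vertical axis. Red points are the 110 genes that rose and the 409 that fell; among the labelled ones CXCL10 lies at -1.88 and EDNRB at 1.03, and points past 4 in size are drawn at the edge.

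Genes of the interferon response formed the group with the largest share of falling members among the lists with at least 10 tested genes. Of 49 antiviral effectors, 33 fell and none rose, where 3.03% of all genes tested fell. In the fit of all libraries 46 were lower, and the median log2 fold change of the list was -0.75. All 49 had a log2 fold change below 0, from -1.39 for OASL, which did not keep its call without each library, to -0.26 for IFI6. IFIT2 (ENSG00000119922; GRCh38 chromosome 10, 89283694 to 89309276, plus strand), which binds translation factors and viral RNA, stood at 407 and 441 CPM in the shMock libraries and 146 and 194 CPM in the knockdown libraries. All knockdown values lay below all shMock values (log2 fold change -1.32, SE 0.13, adjusted p = 2.2e-05). CMPK2, a mitochondrial nucleotide kinase next to RSAD2 in the genome, went from 22.1 and 32.8 CPM to 11.4 and 11.2 CPM, so that its 2 shMock libraries differed more from each other than its 2 knockdown libraries (log2 fold change -1.28, SE 0.16, adjusted p = 0.00015). SAMD9, a restriction factor of poxviruses, was 2.26-fold lower (382 and 358 against 148 and 179 CPM, log2 fold change -1.18, SE 0.10, adjusted p = 6.6e-06). In bulk RNA a lower level can mean fewer cells with the transcript or less of it per cell, and these cannot be told apart here.

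Interferon ligands and receptors were examined next. Among 8 interferon receptors and Janus kinases none rose or fell, and JAK1, the kinase shared by the interferon receptors, had a log2 fold change of -0.01 (250.2 and 229 against 234 and 242 CPM; adjusted p = 0.93), with TYK2 at 0.20 (adjusted p = 0.21). None of 10 interferon ligand genes reached the level for testing, and 6 of them had no counts in any library with TGF-β1. The most abundant ligand, IFNB1, stood at 0.373 and 1.26 CPM in shMock and at 0.306 and 0.102 CPM in the knockdown, where 3 counts amount to 0.152 to 0.172 CPM. Without TGF-β1, IFNB1 stood at 1.48 and 1.53 CPM in shMock and at 0.278 and 0.775 CPM in the knockdown. The groups did not overlap in either comparison, but most of the treated values are within a few counts of 0, and no test was made.

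Some sensors of foreign nucleic acid fell as well. Of 17 tested RNA and DNA sensors, 5 fell (IFIH1, RIGI, EIF2AK2, TRIM25 and STING1) and none rose, with a list median of -0.27. IFIH1, which encodes the RNA sensor MDA5, went from 95.96 and 101 CPM to 52.5 and 51.5 CPM (log2 fold change -0.92, SE 0.08, adjusted p = 6.8e-06). RIGI, a receptor for RNA with a 5′ triphosphate, was lower by a similar amount (192 and 206 against 105 and 115 CPM, -0.86, SE 0.08). EIF2AK2, the kinase PKR that halts translation on double-stranded RNA, fell less (259 and 263 against 166 and 189 CPM, -0.56, SE 0.09). Among 9 guanylate-binding proteins and APOBEC3 deaminases GBP1 (221 and 246 against 95.5 and 115 CPM, -1.15, SE 0.10) and GBP3 (133 and 144 against 72.9 and 80.97 CPM, -0.85, SE 0.09) fell, 2 GTPases that attack vacuoles of intracellular pathogens. GBP5 had the lowest value of the list (-1.999) and did not pass (adjusted p = 0.054). Of 19 genes of MHC class I presentation only TAP1, a subunit of the peptide transporter, fell (144 and 174 against 115 and 112 CPM, log2 fold change -0.48, SE 0.09, adjusted p = 0.003).

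Several surface ligands and secreted signals that act on immune cells were lower. CXCL10 (ENSG00000169245; GRCh38 chromosome 4, 76021117 to 76023497, minus strand), a chemokine for T cells, stood at 10.3 and 12.9 CPM in the shMock libraries and 2.91 and 3.35 CPM in the knockdown libraries, a 3.69-fold difference (log2 fold change -1.88, SE 0.21, adjusted p = 4.9e-05). It was the only one of 6 tested chemokines that fell, and CXCL8 had a lower log2 fold change (-2.12) that did not keep its call. IL6, an inflammatory and profibrotic cytokine, stood at 5.43 and 5.62 CPM in the shMock libraries and 1.89 and 1.12 CPM in the knockdown libraries (log2 fold change -1.87, SE 0.35, adjusted p = 0.0026). IL6R, its receptor chain, moved the other way (4.42 and 3.96 against 9.598 and 8.49 CPM, log2 fold change 1.11, SE 0.14, adjusted p = 0.00018), and these were the only members of 14 that fell or rose. Of 14 immune checkpoint ligands 5 fell and none rose. PD-L1 (CD274) went from 10.2 and 12.3 CPM to 4.75 and 5.74 CPM (log2 fold change -1.10, SE 0.22, adjusted p = 0.0048) and PD-L2 (PDCD1LG2) from 22.5 and 24.2 CPM to 9.14 and 13.4 CPM (-1.05, SE 0.17), both ligands of the inhibitory receptor PD-1 on T cells. TNFSF4, the ligand of the costimulatory receptor OX40, was 1.89-fold lower (21.5 and 21.5 against 11.9 and 10.9 CPM, -0.91, SE 0.14). Of 13 NF-κB targets and other cytokines and of 16 complement genes none fell or rose, and CSF1, the growth factor of macrophages, stood at 52.4 and 44.5 against 47.8 and 48.7 CPM (-0.01, adjusted p = 0.97).

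**Figure D2:**
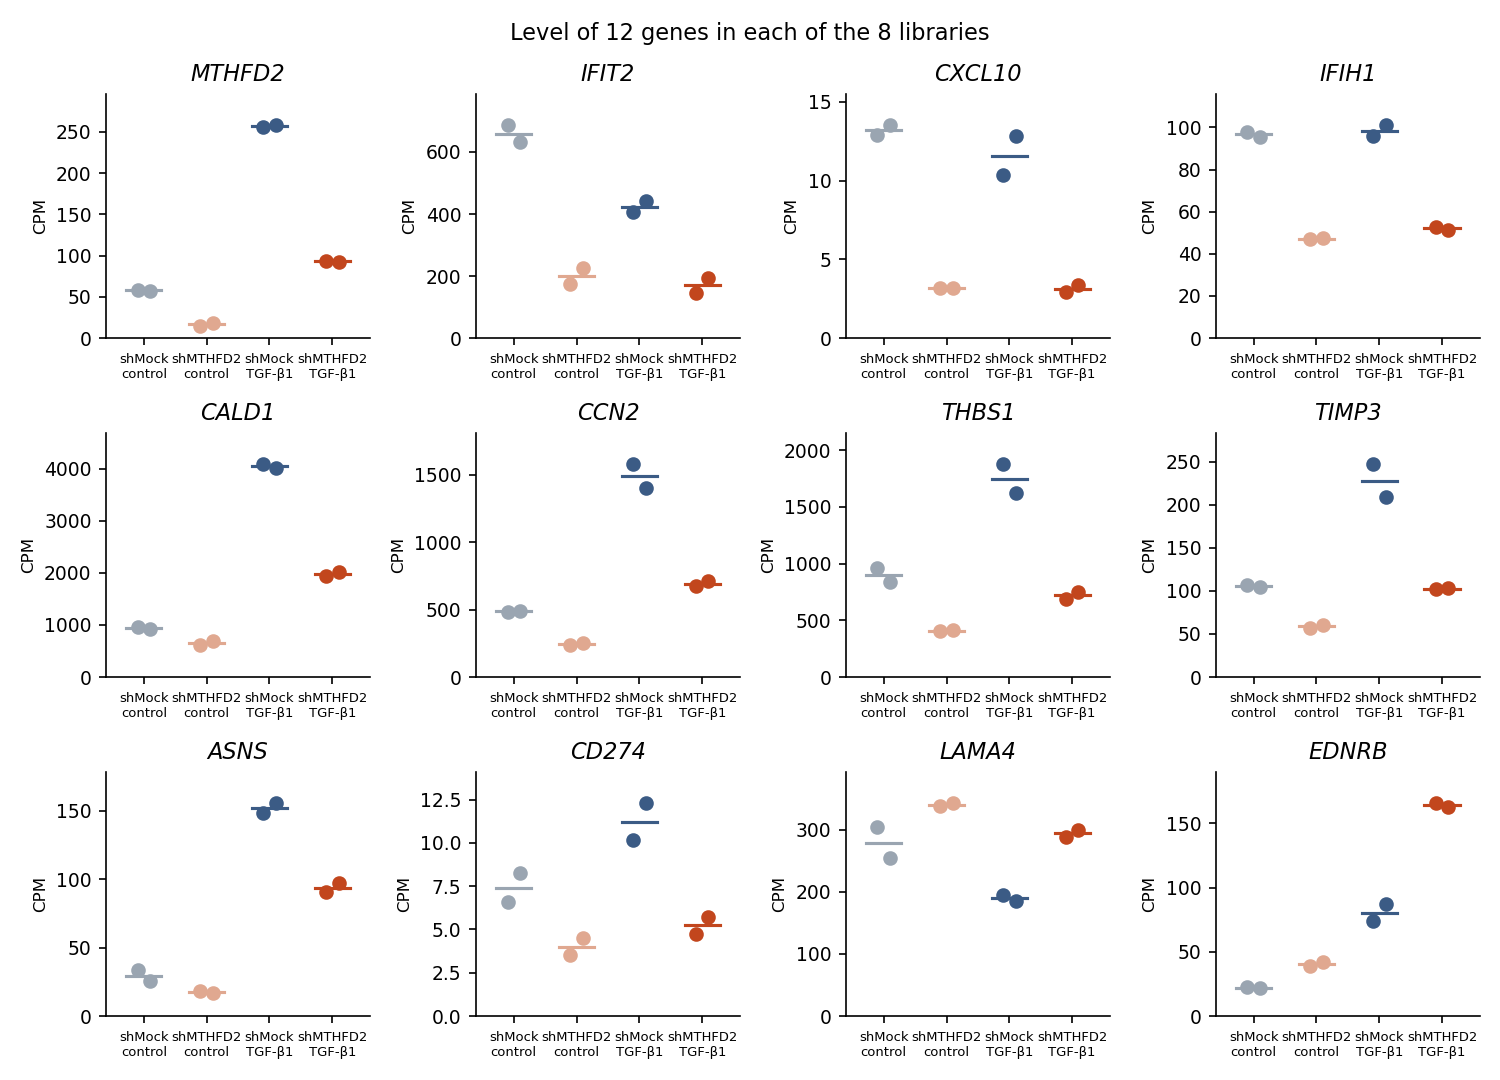
Levels of 12 genes in CPM, with 1 panel per gene, a point for each of the 2 libraries of a group and a bar at their mean. With TGF-β1, MTHFD2, IFIT2, CXCL10, IFIH1, CALD1, CCN2, THBS1, TIMP3, ASNS and CD274 were lower in both knockdown libraries than in both shMock libraries, and LAMA4 and EDNRB were higher.

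Promoters of the antiviral effectors were searched for the interferon-stimulated response element (ISRE), a sequence through which interferon signals reach many such genes. Its core was searched as GAAA, then 2 bases of any kind, then GAAA, on both strands of the 250 bases before and 50 after each gene's start (RefSeq, GRCh38.p14). Promoters matched by symbol for 40 of the 49 effectors, 342 of 406 protein-coding genes that fell and 9791 of 12048 protein-coding genes tested. The core was found in 27 of the 40 effector promoters (67.5%), in 37 of the 342 (10.8%) and in 283 of the 9791 (2.89%). Over genes of every type and without the effectors, 18 of 315 promoters of fallen genes held it (5.71%). Those of CXCL10, RTP4, GBP1, CD274 and IFIH1 were among them. Over all tested genes of every type with a matched promoter, effectors included, 299 of 10300 held it (2.90%). For the protein-coding genes that rose, promoters were matched for 82 of 108 (75.9%), a smaller part than of those tested (81.3%). Of these 82, 0 held the core, and no test was made. Within the effectors the presence of the core did not go with a larger fall: the median log2 fold change was -0.66 for the 27 with it and -0.81 for the 13 without it. The 3 effectors with the lowest fold changes that fell and hold the core before the start are printed below 5′ to 3′ on the strand of the gene, with the core in capitals (on the opposite strand it reads TTTC, 2 bases, TTTC).
SAMD9 (chr7:93118076-93118145, minus strand): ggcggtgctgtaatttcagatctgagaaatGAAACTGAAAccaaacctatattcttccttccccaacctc
DDX60L (chr4:168480503-168480602, minus strand): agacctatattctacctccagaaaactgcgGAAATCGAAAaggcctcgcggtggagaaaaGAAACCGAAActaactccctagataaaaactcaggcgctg
IFIT1 (chr10:89392477-89392559, plus strand): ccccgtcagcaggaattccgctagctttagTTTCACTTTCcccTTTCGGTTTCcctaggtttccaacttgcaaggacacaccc
The core begins 136 bases before the start in SAMD9, whose log2 fold change was -1.18. DDX60L (-1.10) and IFIT1 (-1.07) each hold 2 copies, the one farther from the start 80 and 116 bases before it. A match is a run of letters and was not measured as a bound site.

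Contractile genes of the myofibroblast were frequent among those that fell. Of 29 actin and myosin genes 11 fell and none rose, beside 3.03% of all genes that fell, and in the fit of all libraries 18 were lower. That count was smaller in each fit without 1 treated library. The list median was -0.29, and it lay between -0.38 and -0.24 in those fits. CALD1 (ENSG00000122786; GRCh38 chromosome 7, 134744252 to 134970728, plus strand) encodes caldesmon, which binds actin and restrains myosin, and it went from 4079 and 4002 CPM to 1940.2 and 2022 CPM, and its mean fell by 2059.5 CPM, the most of any gene that fell (log2 fold change -1.03, SE 0.09, adjusted p = 6.3e-06). TPM1, a tropomyosin that coils along actin filaments, had values of 2134 and 2759.9 CPM in the shMock libraries and 1141 and 1082 CPM in the knockdown libraries (log2 fold change -1.14, SE 0.11, adjusted p = 1.2e-05), with the shMock libraries further apart than the gap between the knockdown libraries. CNN1, the smooth muscle calponin, fell from 71.98 and 74.2 CPM to 47.5 and 38.1 CPM (-0.77, SE 0.14). ACTG2, smooth muscle γ-actin, fell too (210.4 and 201 against 121 and 132 CPM, log2 fold change -0.70, SE 0.08, adjusted p = 9.0e-05), and so did ACTA2, TAGLN, LMOD1, TPM3, TPM4, CNN3 and MYL12A. MYLK, the myosin light chain kinase, had the highest value of the list (0.10).

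Some partners of the actin cytoskeleton fell too, beside 3.03% of all genes tested. Of 16 SRF cofactors and LIM proteins 4 fell: PDLIM5 (104 and 98.98 against 65.4 and 64.8 CPM, -0.64, SE 0.09), CSRP1 (392 and 388 against 268 and 238 CPM, -0.62, SE 0.09), FHL2 (189 and 191 against 141 and 116 CPM, -0.56, SE 0.10) and PDLIM1, proteins that tether signalling factors to actin. Of 19 focal adhesion scaffold genes FERMT2, TES, ENAH and VCL fell. FERMT2, or kindlin-2, which activates integrins, went from one level to the other without overlap (351 and 342 against 216 and 209 CPM, log2 fold change -0.70, SE 0.07, adjusted p = 3.5e-05). Among 15 integrin subunits only ITGA1, the α chain of a collagen receptor, fell (1424 and 1339 against 866 and 892 CPM, log2 fold change -0.65, SE 0.08, adjusted p = 0.00011). Without TGF-β1 it stood at 138 and 135 CPM in shMock and 119 and 129 CPM in the knockdown, and the test of the difference between treated and untreated cells did not pass (adjusted p = 0.12). Of 28 genes of the YAP and TAZ pathway, 2 fell, the matricellular factors CCN2 (ENSG00000118523; GRCh38 chromosome 6, 131948176 to 131951373, minus strand; 1575 and 1397 against 678 and 708 CPM, log2 fold change -1.10, SE 0.08, adjusted p = 3.8e-06) and CCN1 (436 and 412 against 256 and 240.0 CPM, -0.78, SE 0.08), and none rose. In the fit of all libraries 12 of the 28 YAP and TAZ genes were lower, beside 8.23% of all genes tested, with a list median of -0.28. That count was 4 to 8 in the fits without 1 treated library. SYNE1, which links the nucleus to actin, fell as the only one of 14 lamina and LINC complex genes (306 and 291 against 201 and 208 CPM, -0.55, SE 0.09).

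The CArG box, bound by serum response factor (SRF) together with its actin-sensing cofactors, was found in 6 of the 25 contractile promoters that could be matched (24.0%), in 8 of the 342 of fallen protein-coding genes (2.34%) and in 107 of 9791 (1.09%). Of the 6 contractile promoters with a box, 2 belong to genes that fell and hold it before the start. These are shown with the box in capitals, and the values were known when the search was made. The others belong to genes that did not fall or do not hold the box wholly before the start.
ACTG2 (chr2:73892868-73892974, plus strand): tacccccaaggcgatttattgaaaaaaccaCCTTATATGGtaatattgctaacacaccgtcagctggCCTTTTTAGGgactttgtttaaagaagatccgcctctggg
TPM4 (chr19:16067335-16067404, plus strand): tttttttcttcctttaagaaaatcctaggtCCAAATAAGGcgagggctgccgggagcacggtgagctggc
ACTG2, which starts within 500 kb of MTHFD2 on the same chromosome, holds 2 boxes, and TPM4 holds 1. The TEAD core GGAATG was found in 49 of the 342 promoters of fallen genes (14.3%) against 10.8% of 9791, the AP-1 site TGANTCA in 5.85% against 4.34%, the SMAD element CAGACA in 13.5% against 12.1%, and the E2F site TTTCCCGC in 3.22% against 2.66%. All were searched on both strands. These shares are descriptions with no test.

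Matrix genes did not move as a block. Of 28 collagen chains none fell and COL4A5, a chain of basement membrane collagen, rose (65.8 and 66.2 against 106 and 112 CPM, log2 fold change 0.72, SE 0.08, adjusted p = 7.6e-05). The list median was 0.04, but -0.12 with offsets that remove the trend with GC content. Of 30 genes for collagen crosslinking and processing 3 fell. LOX, the lysyl oxidase that starts collagen crosslinks, went from 905 and 853 CPM to 585 and 606 CPM (log2 fold change -0.56, SE 0.08, adjusted p = 0.00028), P3H2, a prolyl 3-hydroxylase, from 18.9 and 19.1 CPM to 10.1 and 9.86 CPM (-0.93, SE 0.13) and FKBP14, a prolyl isomerase of the endoplasmic reticulum, from 72.4 and 68.5 CPM to 44.6 and 52.6 CPM (-0.54, SE 0.10). None of 12 elastic fibre genes fell or rose, and FBN1, the fibrillin of microfibrils, stood at 1309.5 and 1139.9 against 1038 and 1095 CPM (adjusted p = 0.26).

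Matricellular proteins, which tune how cells adhere to matrix, were among the most abundant transcripts that fell. THBS1 (ENSG00000137801; GRCh38 chromosome 15, 39581079 to 39599466, plus strand), or thrombospondin 1, an activator of latent TGF-β, stood at 1873 and 1618 CPM in the shMock libraries and 684 and 753 CPM in the knockdown libraries (log2 fold change -1.28, SE 0.10, adjusted p = 3.8e-06). SPARC, a collagen-binding glycoprotein, fell by 1480.1 CPM (5128 and 4900.4 against 3615 and 3453 CPM, -0.50, SE 0.08), and CTHRC1, a marker of collagen-producing fibroblasts, fell as well (469 and 451 against 326 and 298 CPM, -0.56, SE 0.08). These were 3 of 13 genes on the fibronectin and matricellular list. Among 17 hyaluronan and proteoglycan genes the hyaluronan receptor CD44 (1998 and 1701 against 829.8 and 875 CPM, log2 fold change -1.12, SE 0.09, adjusted p = 5.9e-06) and the syndecan SDC4 (48.5 and 42.6 against 27.8 and 22.6 CPM, -0.85, SE 0.11) fell.

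Laminins of the basement membrane moved in the opposite direction. LAMA4 (ENSG00000112769; GRCh38 chromosome 6, 112108760 to 112254939, minus strand) rose from 194 and 186 CPM to 289 and 299.8 CPM, the largest gain in CPM of any gene that rose (105 CPM, log2 fold change 0.63, SE 0.09, adjusted p = 0.00033). LAMA5 rose from 53.8 and 53.5 CPM to 95.5 and 89.5 CPM (log2 fold change 0.79, SE 0.11, adjusted p = 0.00038), and none of the other tested genes of this list of 14 rose or fell.

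Proteases and their inhibitors changed one by one. TIMP3, an inhibitor bound to matrix that blocks both matrix metalloproteases and ADAM proteases, was 2.22-fold lower (247 and 209 against 102 and 103 CPM, log2 fold change -1.15, SE 0.09, adjusted p = 3.8e-06), and no other of 15 metalloprotease and TIMP genes fell or rose. Of 19 ADAM and ADAMTS genes 4 fell and 1 rose. ADAM10, a sheddase of Notch and CD44, went from 236 and 210.1 CPM to 121 and 121 CPM (log2 fold change -0.89, SE 0.09, adjusted p = 1.9e-05), ADAMTS6 from 56.2 and 60.4 CPM to 36.4 and 36.2 CPM (-0.68, SE 0.10) and ADAMTS1, an aggrecanase, from 149 and 141 CPM to 85.8 and 106 CPM (-0.59, SE 0.10), with ADAM19 as the fourth. ADAMTS15 rose from low levels (1.01 and 1.49 against 7.25 and 6.46 CPM, log2 fold change 2.45, SE 0.26, adjusted p = 3.6e-05). In the plasminogen system the activator PLAU fell (78.6 and 77.2 against 59.1 and 58.6 CPM, -0.41, SE 0.08).

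**Figure D3:**
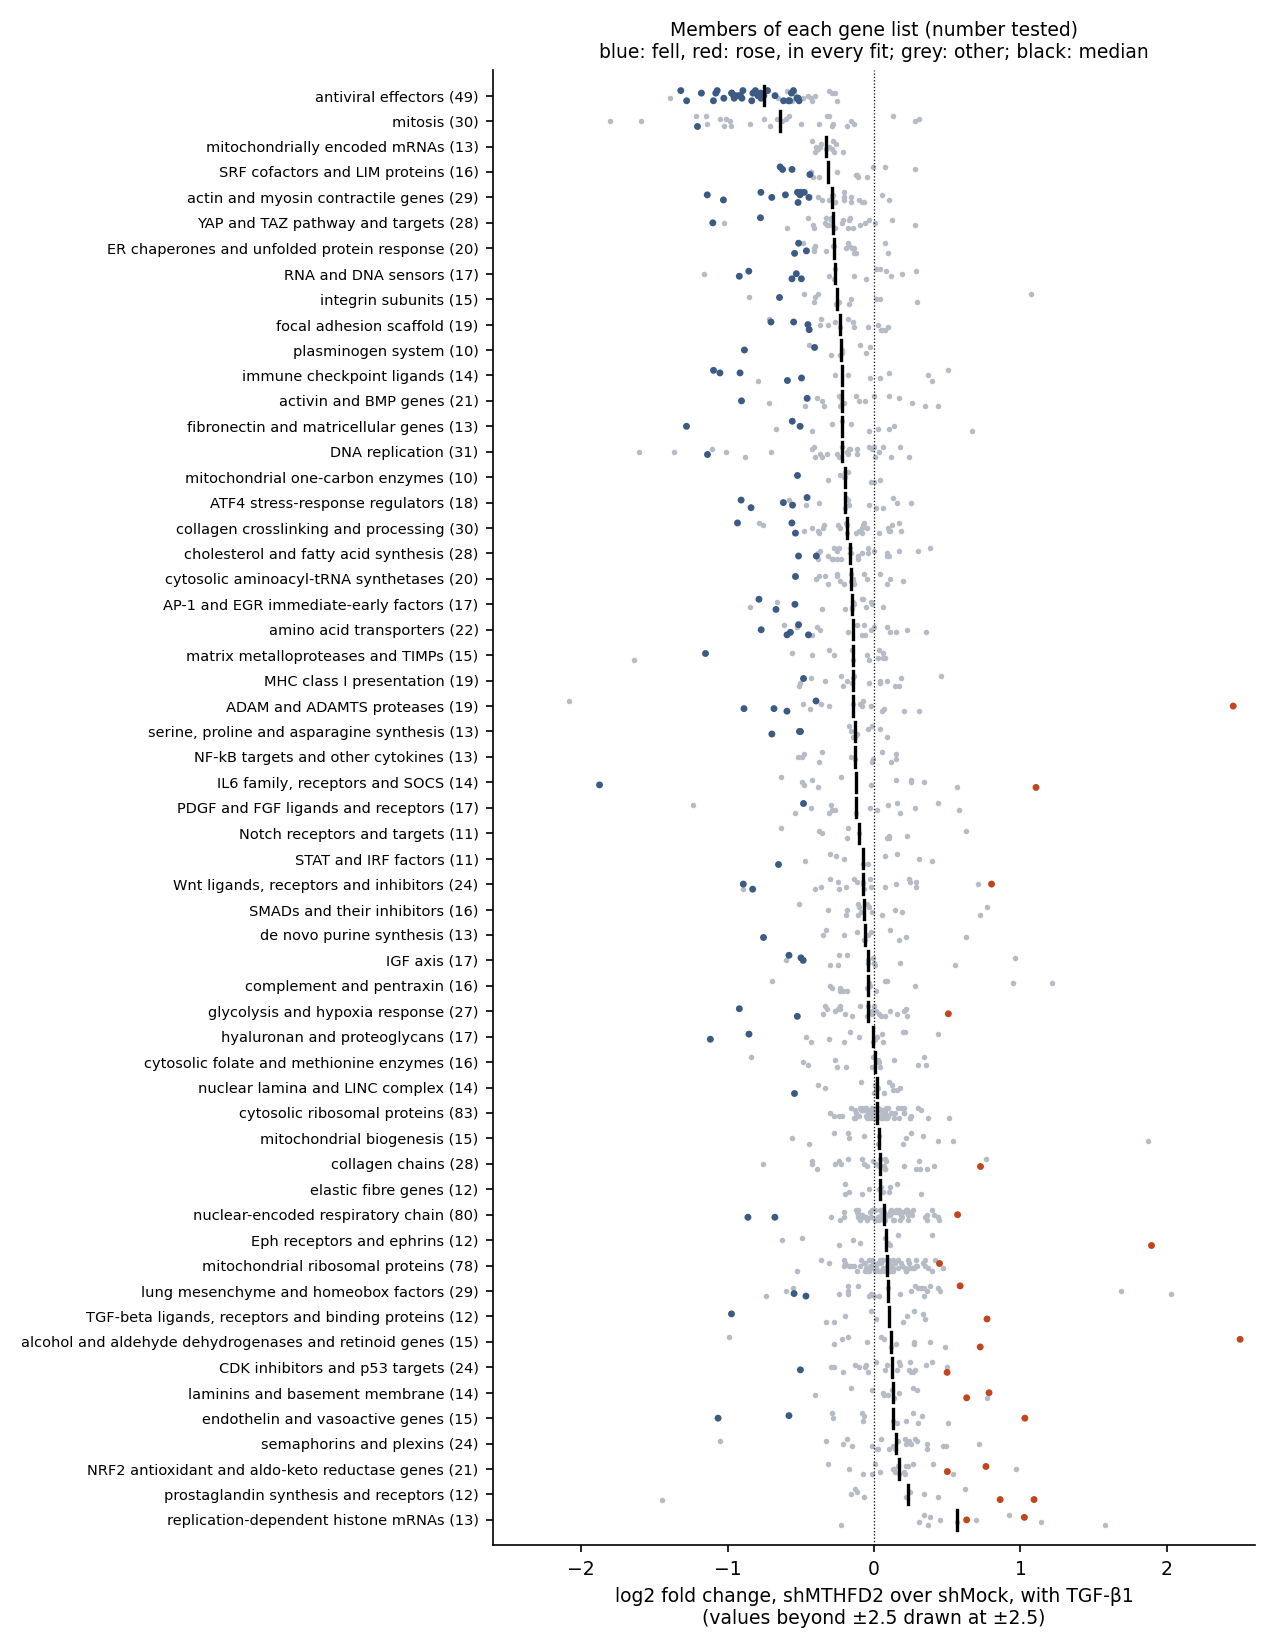
Each row is a gene list with at least 10 tested members, ordered by its median (black tick), and each point is the log2 fold change of a member between knockdown and shMock cells with TGF-β1. Antiviral effectors lie at the top with a median of -0.75 and 33 members that fell (blue), while replication-dependent histone mRNAs lie at the bottom with a median of 0.56.

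Signalling genes of the TGF-β family changed at single points. Of 12 ligands, receptors and binding proteins TGFB2 fell (54.2 and 57.1 against 27.3 and 29.4 CPM, log2 fold change -0.97, SE 0.11, adjusted p = 4.7e-05) and TGFBR3, the co-receptor betaglycan that presents TGF-β2, rose (11.3 and 8.89 against 16.2 and 18.4 CPM, log2 fold change 0.77, SE 0.14, adjusted p = 0.0025). None of 16 SMAD genes and SMAD inhibitors fell or rose. SMURF2, a ubiquitin ligase for SMADs and their receptors, stood at 162 and 168 against 128 and 139 CPM (-0.31, adjusted p = 0.03), a call that was lost without any 1 of the 4 libraries with TGF-β1. Among 21 activin and BMP genes the activin chain INHBA (364 and 363 against 191 and 197 CPM, log2 fold change -0.90, SE 0.08, adjusted p = 1.2e-05) and its extracellular inhibitor FST (803 and 769 against 559.5 and 586 CPM, -0.46, SE 0.08) both fell. Without TGF-β1, INHBA stood at 67.9 and 61.98 CPM in shMock and 52.7 and 60.6 CPM in the knockdown.

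Other growth factor families held a few members that fell, beside 3.03% of all genes tested that fell and 0.815% that rose. Of 17 IGF axis genes 3 fell: IGFBP3 (1077 and 1084 against 809 and 737 CPM, -0.48, SE 0.08) and IGFBP5 (625 and 578 against 415 and 436 CPM, -0.50, SE 0.08), secreted carriers of insulin-like growth factors, and the RNA-binding protein IGF2BP3 (122 and 124 against 81.3 and 83.2 CPM, -0.58, SE 0.08). Of 24 Wnt genes the extracellular inhibitors DKK1 (137 and 125 against 69.6 and 71.5 CPM, log2 fold change -0.89, SE 0.09, adjusted p = 2.2e-05) and SFRP1 (31.5 and 28.9 against 15.3 and 18.8 CPM, -0.83, SE 0.11) fell, and the nuclear effector LEF1 rose (7.89 and 7.34 against 11.9 and 14.7 CPM, 0.80, SE 0.16). FGF2, a fibroblast mitogen, was the only one of 17 PDGF and FGF genes that fell (143 and 149 against 100.4 and 108 CPM, -0.49, SE 0.08). The Eph receptor EPHA7, a guidance receptor, rose from 2.02 and 1.78 CPM to 6.69 and 7.47 CPM (log2 fold change 1.89, SE 0.33, adjusted p = 0.0016) among 12 Eph and ephrin genes, and none of 24 semaphorin and plexin genes or 11 Notch genes rose or fell.

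Vasoactive genes moved in both directions. EDN1, the vasoconstrictor endothelin 1 and a myofibroblast agonist, went from 29.3 and 27.6 CPM to 12.6 and 14.6 CPM (log2 fold change -1.06, SE 0.15, adjusted p = 0.00034). EDNRB (ENSG00000136160; GRCh38 chromosome 13, 77895481 to 77975529, minus strand), an endothelin receptor, went from 73.7 and 87.2 CPM to 165 and 163 CPM (log2 fold change 1.03, SE 0.09, adjusted p = 7.6e-06), so that all knockdown values lay above all shMock values. PDE5A, which degrades cyclic GMP, fell (345 and 370.0 against 229.6 and 249 CPM, -0.58, SE 0.09), and the other 12 of 15 genes neither rose nor fell. In prostaglandin synthesis, PLA2G4A, the phospholipase that frees arachidonic acid (5.86 and 5.795 against 10.2 and 11.03 CPM, 0.86, SE 0.14), and TBXAS1, thromboxane synthase (6.77 and 8.03 against 16.5 and 14.99 CPM, log2 fold change 1.09, SE 0.15, adjusted p = 0.00033), rose among 12 genes.

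Some genes of the pathways around MTHFD2 fell. Of the 10 tested mitochondrial folate enzymes, a list without MTHFD2, ALDH1L2 fell (273 and 243 against 176 and 182 CPM, log2 fold change -0.53, SE 0.08, adjusted p = 0.0008), which oxidises formyl-tetrahydrofolate in mitochondria. Of 13 genes of serine, proline and asparagine synthesis 3 fell: ASNS, asparagine synthetase (149 and 155 against 90.5 and 96.9 CPM, log2 fold change -0.70, SE 0.10, adjusted p = 0.00041), PYCR1, the last enzyme of proline synthesis (107 and 101 against 71.5 and 75.03 CPM, -0.51, SE 0.09), and PSAT1, an aminotransferase of serine synthesis (168 and 167 against 127 and 109 CPM, -0.50, SE 0.08). None of 16 cytosolic folate and methionine genes fell or rose, and MAT2A, which makes S-adenosylmethionine, stood at 311 and 420.0 against 300.3 and 314 CPM with overlapping groups. In purine synthesis PRPS1, which makes the ribose phosphate that purines are built on, was the only one of 13 genes that fell (143 and 139 against 81.02 and 85.6 CPM, log2 fold change -0.76, SE 0.08, adjusted p = 2.4e-05).

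Amino acid uptake and the ATF4 response were lower at several genes. Of 22 transporters 5 fell, namely SLC1A1 for glutamate (18.2 and 17.9 against 10.9 and 10.3 CPM, -0.77, SE 0.14), SLC36A1 (56.2 and 55.1 against 34.1 and 39.6 CPM, -0.59, SE 0.10), SLC38A5 for glutamine and glycine (55.7 and 54.9 against 36.6 and 37.9 CPM, -0.57, SE 0.11), SLC7A1 and SLC7A5. Of 18 regulators and targets of ATF4 also 5 fell, among them ATF3 (42.7 and 44.8 against 25.3 and 23.6 CPM, log2 fold change -0.84, SE 0.11, adjusted p = 0.00018), a stress-induced repressor, EIF4EBP1 (64.6 and 59.4 against 40.02 and 40.8 CPM, -0.62, SE 0.10), which holds back translation, and VLDLR (17.1 and 15.1 against 8.27 and 8.896 CPM, -0.91, SE 0.17), with PPP1R15A and CEBPG as the others. Of 20 cytosolic aminoacyl-tRNA synthetases the tryptophan enzyme WARS1, itself an interferon target, fell (255 and 252 against 171 and 178 CPM, -0.54, SE 0.08). The chaperone BiP (HSPA5; 770.0 and 714 against 497 and 523 CPM, log2 fold change -0.54, SE 0.08, adjusted p = 0.00038), the transcription factor XBP1 (165 and 162 against 108 and 120.4 CPM, -0.51, SE 0.08) and HERPUD1 (143 and 143 against 97.3 and 111 CPM, -0.46, SE 0.08) were the 3 of 20 unfolded protein response genes that fell. None of these lists held a gene that rose.

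Energy and lipid metabolism showed few changes, beside 3.03% of all genes tested that fell and 0.815% that rose. The counts for the nuclear-encoded respiratory chain lie near these shares. Of 27 glycolysis and hypoxia genes PGAM1 (319.7 and 291 against 211 and 214 CPM, -0.52, SE 0.08), an enzyme of lower glycolysis, and the carbonic anhydrase CA12 (10.3 and 11.8 against 5.56 and 6.100 CPM, -0.92, SE 0.13) fell, and the enolase ENO2 rose (38.9 and 40.1 against 54.4 and 57.9 CPM, 0.51, SE 0.10). Of 28 genes of cholesterol and fatty acid synthesis SQLE (313 and 288 against 210.0 and 210.4 CPM, -0.52, SE 0.08) and MSMO1 (388 and 361 against 288 and 282 CPM, -0.39, SE 0.08), both of the sterol pathway, fell. Of 80 nuclear-encoded respiratory chain genes the cytochrome oxidase subunits COX7C (70.3 and 62.5 against 39.8 and 33.3 CPM, log2 fold change -0.86, SE 0.11, adjusted p = 0.00014) and COX7A2 (46.7 and 47.7 against 31.4 and 27.7 CPM, -0.68, SE 0.10) fell and NDUFS7 of complex I rose (27.6 and 27.02 against 40.9 and 40.2 CPM, 0.57, SE 0.13). All 13 mitochondrially encoded mRNAs had values below 0, from -0.43 to -0.21. In the edgeR fit of all libraries none passed the adjusted threshold and 6 had an unadjusted p under 0.05. DESeq2 called 0, but 8 were lower in the fit of the 4 libraries with TGF-β1 alone, 11 with no filter on low genes, 2 at a mean of 5 CPM or more, 3 without either shMock control library and 1 without either shMTHFD2 control library. MT-CO1 stood at 13219 and 13084 against 11350.0 and 11406 CPM (adjusted p = 0.36). Without TGF-β1 the median of these 13 was 0.54 and 10 were higher (3.25% of all genes were higher there). The interaction test called none of them, and the mitochondrial share of counts ranged from 3.89 to 7.74% in the untreated libraries. Of 78 mitochondrial ribosomal proteins MRPL10 alone rose (29.3 and 28.6 against 38.7 and 39.9 CPM, 0.44, SE 0.10), and of 83 cytosolic ribosomal proteins and 15 mitochondrial biogenesis genes none fell or rose.

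Oxidative stress and retinoid genes held risers. Of 21 NRF2 and aldo-keto reductase genes HMOX1, heme oxygenase 1 (48.8 and 45.7 against 69.5 and 64.3 CPM, 0.50, SE 0.09), and AKR1C1, a steroid reductase (20.4 and 21.5 against 34.2 and 36.8 CPM, log2 fold change 0.76, SE 0.11, adjusted p = 0.00028), rose and none fell. AKR1C1 has close copies, AKR1C2 among them (log2 fold change 0.97, not in every fit), and reads may be split between these. Of 15 alcohol and aldehyde dehydrogenase genes ADH1B (0.16 and 0.402 against 1.99 and 2.24 CPM, log2 fold change 2.91, SE 0.35, adjusted p = 0.0001) and ALDH3A2, a fatty aldehyde dehydrogenase (12.6 and 13.7 against 21.03 and 22.3 CPM, 0.73, SE 0.12), rose. ADH1B was close to 3 counts in the shMock libraries (where these amount to 0.160 and 0.172 CPM), so the size of its change is poorly bounded.

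Most calls among cell cycle genes did not hold without each treated library. Of 30 mitosis genes 10 were lower in the fit of all libraries, and 27 had a log2 fold change below 0. The list median was -0.64. It was -0.50 and -0.78 without shMock TGF-β1 replicates 1 and 2, and -0.50 and -0.70 without shMTHFD2 TGF-β1 replicates 1 and 2. Without TGF-β1, 7 were lower, with a median of -0.54. ANLN, which scaffolds the cytokinetic ring and also binds actin, was the mitosis gene that fell in every fit (19.6 and 15.4 against 6.74 and 8.44 CPM, log2 fold change -1.21, SE 0.16, adjusted p = 0.0002). Of 31 DNA replication genes RRM2, a subunit of ribonucleotide reductase, fell (12.2 and 9.18 against 3.98 and 5.74 CPM, log2 fold change -1.14, SE 0.20, adjusted p = 0.002). The 13 tested replication-dependent histone mRNAs had a median of 0.56, and H2BC12 (8.05 and 7.34 against 17.8 and 13.6 CPM, 1.03, SE 0.19) and H2AC6 (23.1 and 20.8 against 34.4 and 33.6 CPM, 0.63, SE 0.11) rose. These histone genes have near-identical copies, and most of their transcripts lack a poly(A) tail, which the mRNA kit named in the labels would usually select. Of 24 CDK inhibitors and p53 targets CDKN2B, the TGF-β-induced inhibitor p15, fell (214 and 227 against 163 and 148 CPM, -0.50, SE 0.09) and PLK2 rose (73.4 and 76.7 against 112 and 100.2 CPM, 0.50, SE 0.08). The cell cycle element TTTGAA, searched on both strands, was found in 16 of 24 matched mitosis promoters (66.7%) and in 11.1% of the 342 of fallen genes, against 9.57% of 9791.

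Transcription factors of the mesenchyme were split. Of 29 lung mesenchyme and homeobox factors ZEB1 (259 and 238 against 159 and 181 CPM, -0.55, SE 0.10) and SNAI2 (92.8 and 89.2 against 66.2 and 65.6 CPM, -0.46, SE 0.08), factors of the epithelial-mesenchymal transition, fell, and TCF21, a marker of lipid-storing lung fibroblasts, rose (32.8 and 31.3 against 48.7 and 47.7 CPM, log2 fold change 0.59, SE 0.08, adjusted p = 0.00034). OSR1, a mesenchymal progenitor factor, rose as well (15.1 and 16.9 against 37.2 and 32.7 CPM, log2 fold change 1.13, SE 0.12, adjusted p = 2.9e-05). Among 17 immediate-early factors 3 fell, KLF6 (244 and 236 against 154 and 148 CPM, log2 fold change -0.67, SE 0.08, adjusted p = 7.2e-05) and the phosphatase DUSP1 (58.1 and 61.1 against 38.2 and 43.7 CPM, -0.54, SE 0.09) among them, and none rose.

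Outside the lists, the genes with the largest changes were mixed in function. POGLUT3, which adds glucose to EGF repeats, fell from 120.4 and 112 CPM to 47.7 and 50.4 CPM (log2 fold change -1.24, SE 0.09, adjusted p = 2.7e-06), and RTP4, an interferon-induced chaperone of receptors, from 12.2 and 15.1 CPM to 6.48 and 5.24 CPM (-1.22, SE 0.18). Rising genes included the potassium channel KCNJ2 (2.29 and 2.07 against 4.901 and 7.73 CPM, 1.53, SE 0.24), the synaptic adhesion gene SLITRK5 (5.12 and 5.16 against 13.3 and 10.8 CPM, 1.23, SE 0.16), PRRT2 (11.8 and 13.8 against 30.99 and 24.8 CPM, 1.13, SE 0.14), the lipid transporter ABCA7 (6.55 and 10.3 against 18.02 and 17.9 CPM, 1.10, SE 0.17) and the adhesion receptor ADGRL2 (1.10, SE 0.14). All lay below 40 CPM in every library with TGF-β1. By change in CPM, CALU, a calcium-binding protein of the secretory pathway (1963 and 1702 against 1005 and 1075 CPM, -0.82, SE 0.09), TPM4 (2530.0 and 2266 against 1753 and 1633 CPM, -0.50, SE 0.09), SEPTIN11 (1802 and 1712 against 1161 and 1226 CPM, -0.56, SE 0.08) and the chloride channel protein CLIC4, which moves to the nucleus under TGF-β (1045 and 1075 against 557 and 542 CPM, log2 fold change -0.95, SE 0.08, adjusted p = 4.9e-06), were among the 10 largest falls. Among the 10 largest gains were ST3GAL1 (139 and 139 against 187 and 200.2 CPM, 0.48, SE 0.08), a sialyltransferase, AP2A1 (143 and 139 against 199 and 189 CPM, 0.46, SE 0.09), an endocytic adaptor, the tetraspanin CD82 (121 and 127 against 164 and 169 CPM, 0.43, SE 0.08), the nuclear receptor NR2F2 (84.2 and 82.8 against 130.0 and 118 CPM, 0.57, SE 0.08), AHRR (95.4 and 112 against 141 and 145 CPM, 0.46, SE 0.09) and RETREG2 (119 and 115 against 155 and 156 CPM, 0.41, SE 0.07). The long non-coding RNAs CYTOR (50.6 and 52.4 against 31.6 and 28.7 CPM, -0.77, SE 0.10) and MIR4435-2HG (93.8 and 92.9 against 68.7 and 69.1 CPM, -0.44, SE 0.08) fell, and as near-identical copies they may share reads. Of 27 tested genes that start within 500 kb of MTHFD2 on chromosome 2, ACTG2 fell, and MOGS (0.31) and PCGF1 (0.51) passed with all libraries but not without any 1 of the 4 with TGF-β1. MOB1A (-0.30) passed with all libraries and lost its call in 3 of those 4 fits.

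The untreated libraries, which share no library with the treated comparison, give the knockdown difference at rest. There 438 genes (3.25%) were higher and 1105 (8.19%) lower. Of the 409 genes that fell with TGF-β1, 324 (79.2%) were also lower without it and 397 had the same sign. Of the 110 that rose, 46 (41.8%) were also higher and 104 had the same sign. Among genes called with all libraries, 619 were lower in both comparisons (55.8% of the treated and 56.0% of the untreated list) and 130 higher in both (19.9% and 29.7%). Of the antiviral effectors 47 of 49 were lower without TGF-β1, with a median of -0.83, and of the contractile genes 18 of 29, with a median of -0.32. Across the 13493 genes the 2 log2 fold changes had a Pearson correlation of 0.328 and a Spearman correlation of 0.408, a description over genes that share the 2 lines and are no independent replicates.

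**Figure D4:**
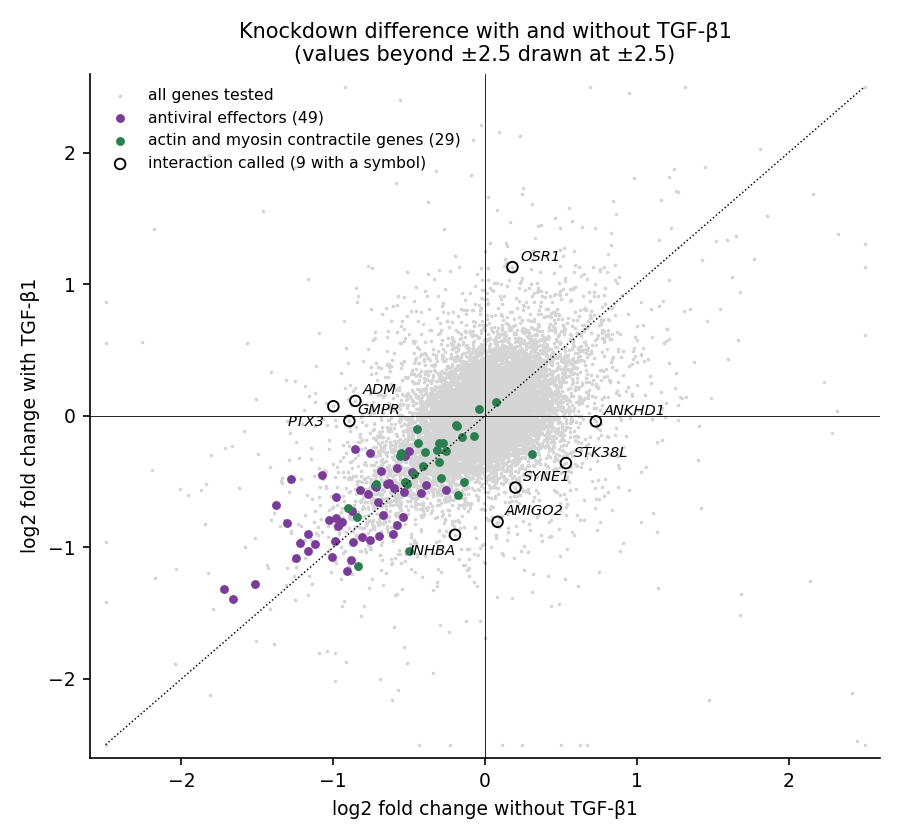
The log2 fold change of each gene between knockdown and shMock cells without TGF-β1 (horizontal) and with it (vertical), with the dotted line at equal values. Antiviral effectors (purple) have medians of -0.83 and -0.75 and contractile genes (green) of -0.32 and -0.29, and circles mark the 9 genes with a symbol for which the test of the difference between the 2 values passed.

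A test of the difference between the treated and untreated comparisons (interaction) called 12 genes (0.0889%), 9 of them with a symbol. The pentraxin PTX3, a soluble pattern receptor, had the lowest adjusted p of these and was called in 16 of 16 other fits. It stood at 22.3 and 23.7 against 23.9 and 24.4 CPM with TGF-β1 and at 166 and 162 CPM in shMock and 81.7 and 82.3 CPM in the knockdown without it (log2 difference 1.07, SE 0.12, adjusted p = 0.0014). AMIGO2, an adhesion protein, fell with TGF-β1 (286 and 301 against 163 and 172 CPM), where its level was far higher than without it (20.6 and 19.1 CPM in shMock and 18.8 and 23.4 CPM in the knockdown; log2 difference -0.89, SE 0.14, adjusted p = 0.031). INHBA (log2 difference -0.71, SE 0.12, adjusted p = 0.041) and SYNE1 (log2 difference -0.75, SE 0.12, adjusted p = 0.033) fell in treated cells. The difference for each was called in 8 of the 16 other fits. OSR1 was higher in the knockdown than in shMock among treated cells (log2 fold change 1.13). Its log2 difference between the comparisons was 0.95 (SE 0.16, adjusted p = 0.033), called in 9 of 16. EDN1, at 1.08 and 1.04 CPM in shMock and 1.44 and 1.55 CPM in the knockdown without TGF-β1, did not pass (adjusted p = 0.069), nor did IL6R (adjusted p = 0.055).

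Gene GC content moved with the knockdown difference in treated cells. Across 13416 genes with a sequence, Spearman's rho between GC content and log2 fold change was 0.33, and the median log2 fold change went from -0.10 in the lowest to 0.17 in the highest of 10 equal groups by GC content. Without TGF-β1 the medians ran the other way, from 0.05 to -0.08. The median GC content was 44.0% for genes that fell, 54.2% for genes that rose and 48.0% for all tested. With offsets that remove this trend library by library, 945 of the 1110 lower and 399 of the 652 higher calls of the all-library fit were made again. Of the genes that fell or rose, all 409 and 108 of the 110 were called again. The antiviral effectors, at a median GC content of 47.0%, kept a median of -0.72 under the offsets, and the contractile genes, at 54.9%, had -0.37. What set the GC trend was not tested.

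**Figure D5:**
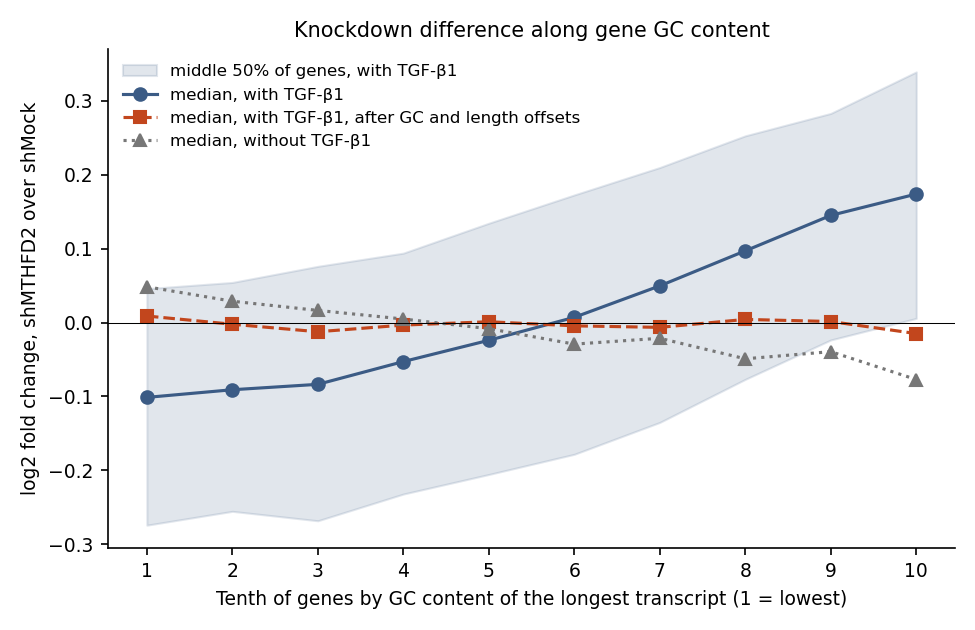
Median log2 fold change between knockdown and shMock cells (vertical) in 10 equal groups of genes ordered by GC content (horizontal), with TGF-β1 (circles, the band holds the middle 50% of genes), after GC and length offsets (squares) and without TGF-β1 (triangles). The treated medians climb from -0.10 to 0.17 and lie near 0 after the offsets.

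Exons of 16 of the 129 named genes that rose or fell overlap another gene on the same strand, so that reads may be shared or dropped: IFIT2, GBP3, ITGA1, TGFB2, LAMA5, ASNS, PYCR1, ADH1B, RRM2, COX7C, MCAM, PRRT2, NR2F2, AHRR, CYTOR and MIR4435-2HG. Another 50 of the 129, with some of the same genes among them, overlap one on the opposite strand, MTHFD2, CCN2 and THBS1 included, and whether strand was used in counting is not known from the sources used here. A further 5 gene IDs without a symbol fell, some of them to 0 counts in both knockdown libraries, and are not described because they overlap other genes.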

How the data were processed

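The deposited table holds whole-number counts per Ensembl gene ID for 8 libraries, although it is titled as FPKM. Per the submitters' processing notes, STAR 2.7.1a, DESeq2 1.32.0 and GRCh38 were used. The sources used here do not name the counter, the annotation or the use of strand. From these deposited counts, CPM on TMM-scaled library sizes and fold changes were computed with edgeR 4.0.16 in R 4.3.3. One fit of all 8 libraries with a mean per group had 4 residual degrees of freedom and a biological coefficient of variation of 8.79%. Genes needed a mean of 1 CPM, and p-values were adjusted by Benjamini-Hochberg over 13493 genes, with 0.05 as the threshold. SE is that of the log2 fold change, derived from the test statistic. The script was tested on simulated data. Symbols came from the supplied name table (60437 of 60666 IDs), positions, GC content and overlaps from GENCODE 29, promoters from RefSeq. Library totals ran from 18162738 to 22221927 counts, and replicates differed by more than counting error (chi-square per degree of freedom 6.47 to 11.2). Alternatives were RLE factors, library totals, other filters, the 4 treated libraries alone, GC and length offsets, a replicate block, leaving out each library, and DESeq2 1.42.0.

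The genes and lists were chosen with earlier results of these data known. Named genes are MTHFD2, up to 3 highest and 3 lowest members of each list that changed in every fit without 1 treated library (or the 2 most abundant where none did), the 10 highest and lowest fold changes at a mean of 10 CPM or more, the 10 largest rises and falls in CPM, up to 10 interaction genes, named non-coding RNAs and called neighbours of MTHFD2. Other genes appear as members or range ends of a list. Some genes the rule names are not reported here.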

Additional observations from a re-analysis of the deposited data

Results flagged for a closer look

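For 9 genes with a symbol the knockdown difference with TGF-β1 departed from that without it, by the interaction test (edgeR quasi-likelihood, adjusted over 13493 genes). The log2 difference between the comparisons was positive for PTX3 (1.07, SE 0.12, adjusted p = 0.0014), ADM (0.97, SE 0.15, adjusted p = 0.031), OSR1 (0.95, SE 0.16, adjusted p = 0.033) and GMPR (0.85, SE 0.14, adjusted p = 0.033). It was negative for STK38L (-0.89, SE 0.15, adjusted p = 0.033), AMIGO2 (-0.89, SE 0.14, adjusted p = 0.031), ANKHD1 (-0.77, SE 0.12, adjusted p = 0.031), SYNE1 (-0.75, SE 0.12, adjusted p = 0.033) and INHBA (-0.71, SE 0.12, adjusted p = 0.041). ADM, the vasodilator adrenomedullin, stood at 85.2 and 94.9 against 99.8 and 94.9 CPM with TGF-β1 and at 261 and 266 CPM in shMock and 164 and 127 CPM in the knockdown without it. GMPR, which turns GMP into IMP, stood at 34.9 and 37.98 against 35.1 and 35.8 CPM with TGF-β1 and at 43.8 and 47.8 CPM in shMock and 24.4 and 24.96 CPM in the knockdown without it. STK38L, a kinase of the Hippo family, stood at 93.5 and 101 against 79.9 and 71.4 CPM with TGF-β1 and at 23.9 and 22.8 CPM in shMock and 30.4 and 37.4 CPM in the knockdown without it. ANKHD1 stood at 59.8 and 58.1 against 54.01 and 60.5 CPM with TGF-β1 and at 38.5 and 40.2 CPM in shMock and 65.1 and 65.6 CPM in the knockdown without it, and its exons overlap a gene on the same strand. PTX3 was called in 16 of 16 other fits and ADM in 12, while the calls of the others held in 8 to 11. A further 3 called IDs have no symbol, and their exons overlap other genes on the same strand.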

How the results depend on the processing

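With library totals in place of TMM, which moved the all-gene median (log2) from 0.01 to 0.10, 1338 genes were higher and 717 lower, and 297 higher and 412 lower in both comparisons. Leaving out 1 library at a time gave 226 to 636 higher and 591 to 1228 lower genes, 37 to 156 higher and 393 to 548 lower in both comparisons, and 3 to 185 interaction genes. The interaction called 321 genes with no filter, 36 at a mean of 5 CPM or more and 102 with DESeq2, against 12. Other settings left the counts of higher and lower genes within 1.5 times. With a replicate block the counts were 659 higher and 1075 lower. Same-numbered libraries correlated at -0.03 to 0.10 in their deviations from the group means, so the numbers were not taken as pairs. The fallen and risen genes were defined as called without each of the 4 treated libraries, so those 4 fits say nothing further about them. In every other setting all 409 fallen genes were called again, except the filter at 5 CPM, where 405 were and 4 were not tested. All 110 risen genes were called again in these settings except the filter at 5 CPM (107) and the GC and length offsets, with or without the replicate block (108). Of the 129 named genes that rose or fell, IL6 and EPHA7 dropped out, under the filter at 5 CPM alone, where they were not tested. At this depth, counting error leaves interferon ligands and genes near 3 counts, such as ADH1B in shMock, without a usable fold. For IFNB1 the knockdown libraries lay below the shMock libraries both with and without TGF-β1, which was not tested.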
